A study of Mus musculus with 16 samples.

Results

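The genes described here make ribosomes: 40 genes of ribosome biogenesis and the transcription factor gene Myc, followed across 4 groups of mouse thyroids as a readout of growth. They came from a list of gene symbols, and an entry of the deposited RNA count table was a member when its gene name equalled a symbol of the list. All 41 symbols were found, each once, among 25611 entries, and all 41 were among the 16630 genes that had enough counts to be tested. RNA-seq was run on thyroids of 16 mice of strain C57BL/6, aged 1 month and weaned at 3 weeks, with 4 female mice in each group. WT mice were compared with mice that carried Glis3<tm2Amj> together with Pax8<tm1.1(cre)Mbu> (background B6;129), here Glis3-Pax8Cre, and both were fed normal diet (ND, NIH31) or low iodine diet (LID, Harlan TD.95125) for less than a week. Groups are named by genotype with the diet in brackets, as in Glis3-Pax8Cre(LID). In Glis3-Pax8Cre mice a Cre expressed from the Pax8 locus, which is active in thyroid follicular cells, removes from Glis3 an exon that codes for part of the zinc finger region, so the genotypes also differ by a Cre allele of Pax8. Whether the WT mice carried floxed Glis3 was not stated. The study asked what the transcription factor GLIS3 does in the thyroid when iodine is short and thyrotropin rises.

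Ribosomes are assembled in the nucleolus. RNA polymerase I transcribes the precursor of ribosomal RNA, small nucleolar RNPs guide its modification and cleavage, and assembly factors fold and trim it into the small and the large subunit. MYC binds E-box sequences and raises transcription of many of these genes, and ribosome production goes with cell growth, which in the thyroid follows thyrotropin when iodine is lacking.

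Total counts per library were 73983945, 63894808, 68146516 and 461077969 (WT) and 13892352, 156548225, 53110024 and 48886591 (Glis3-Pax8Cre) on ND, and 82374267, 81559012, 63122523 and 70180349 (WT) and 75933602, 60320453, 85741075 and 55451647 (Glis3-Pax8Cre) on LID, with values here and below in the order of replicates 1 to 4. WT(ND) replicate 4 was the deepest library and Glis3-Pax8Cre(ND) replicate 1 the shallowest, in which 3 counts, the least taken as detected, equal 0.188 CPM. CPM are counts scaled by library size, here with trimmed mean of M-values (TMM) factors. Glis3 was at 79.2, 85.8, 81.8 and 45.2 CPM (WT) and 105, 93.0, 101 and 85.8 CPM (Glis3-Pax8Cre) on ND, and 125, 174, 165 and 161 CPM (WT) and 150.3, 119.5, 204 and 185 CPM (Glis3-Pax8Cre) on LID. WT(ND) replicate 4 was lowest and the values of the genotypes overlapped under LID, and counts over the whole gene cannot show the loss of an exon, so Glis3 did not check the genotype labels. Slc5a5 (the sodium iodide symporter) was at 182, 187, 81.8 and 132 CPM (WT) and 11, 8.43, 9.66 and 15.8 CPM (Glis3-Pax8Cre) on ND, and 1898, 2111, 2178 and 1927 CPM (WT) and 15, 20.2, 16 and 15.8 CPM (Glis3-Pax8Cre) on LID. Each Glis3-Pax8Cre mouse was under each WT mouse, and WT(LID) was over WT(ND) in 4 of 4 mice. Pax8 (a transcription factor of follicular cells) was at 397, 374, 996 and 385 CPM (WT) and 958, 989, 944 and 643 CPM (Glis3-Pax8Cre) on ND, and 329.8, 339, 329.7 and 280.2 CPM (WT) and 936, 753, 828 and 828 CPM (Glis3-Pax8Cre) on LID. WT(ND) replicate 3 stood at the level of Glis3-Pax8Cre mice for Pax8 but well above all Glis3-Pax8Cre mice for Slc5a5, so counts of members with WT(ND) are also given without this library where it moved them.

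All 10 follicular cell markers were detected in each of the 16 mice, and thyroglobulin (Tg), the most abundant of them, took 7.87% to 29.3% of counts, so the tissue label held. Summed thymocyte markers were at 156, 45.0, 9.71 and 8.5 CPM (WT) and 11.7, 13.9, 13.3 and 2665 CPM (Glis3-Pax8Cre) on ND, and 4.56, 4.72, 222 and 4.80 CPM (WT) and 8.10, 8.28, 8.04 and 333 CPM (Glis3-Pax8Cre) on LID. Glis3-Pax8Cre(ND) replicate 4 stood far above the other mice, with Rag1, a recombinase gene of developing lymphocytes, the most abundant of the 10 markers at 1120.1 CPM and no marker at 0. WT(ND) replicate 1, WT(LID) replicate 3 and Glis3-Pax8Cre(LID) replicate 4 also lay above their groups, while up to 2 of the 10 markers were at 0 in other mice. Glis3-Pax8Cre(ND) replicate 4 was the highest of all 16 mice for 18 of the 41 members, and WT(ND) replicate 4 the lowest for 20. Counts of calls in the members and in the other lists, in comparisons with Glis3-Pax8Cre(ND), are therefore given with and without replicate 4. The part of other cells in the members' values was not tested, and in bulk tissue fewer cells of a type and less RNA per cell cannot be told apart.

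**Figure D1:**
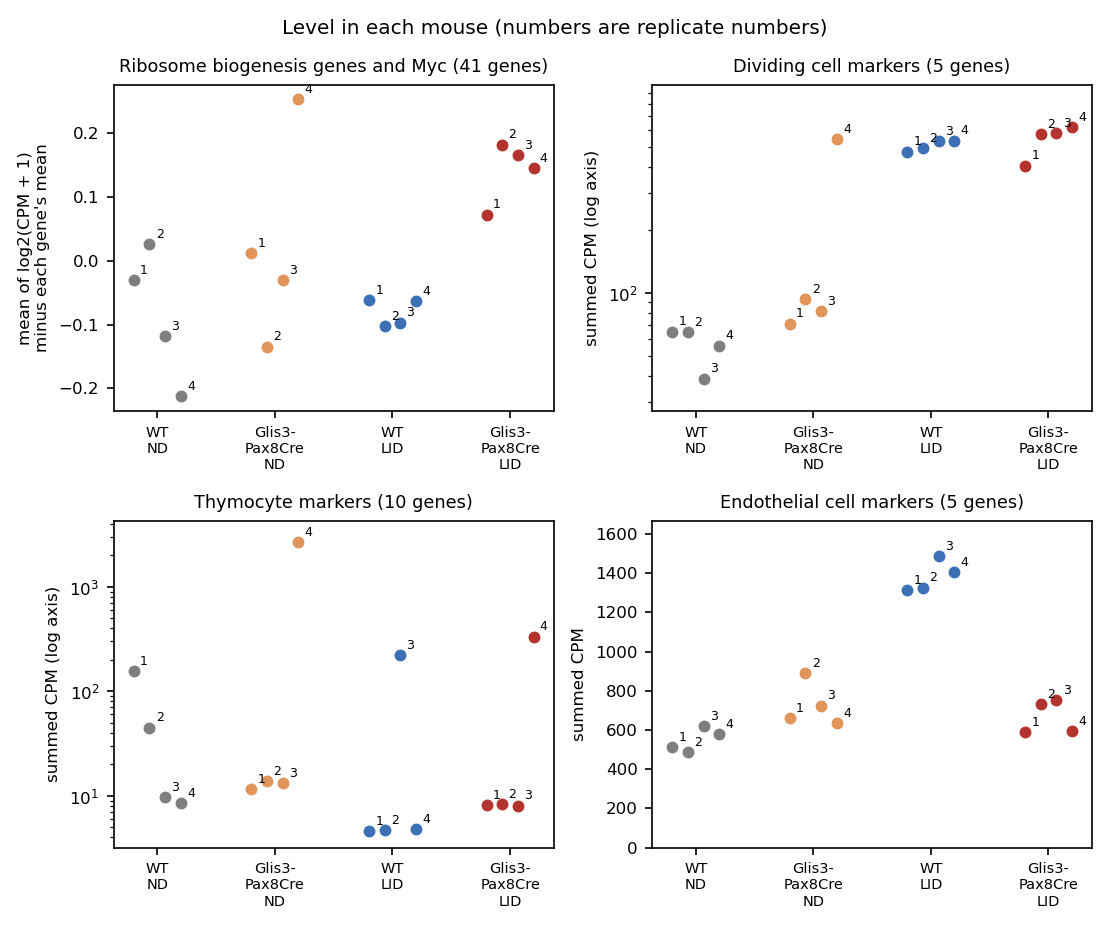
Mean member level (log2 of CPM + 1 against the mean over all mice) and summed CPM of marker genes, with 1 point per mouse and its replicate number; the thymocyte and dividing cell axes are logarithmic. Glis3-Pax8Cre(ND) replicate 4 stands apart at 2665 CPM of thymocyte markers and has the highest mean member level, 0.25.

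Among the members, levels were compared as mean CPM per kb of exon over the 16 mice. Npm1, which codes for nucleophosmin, had the highest level, 81.2 CPM per kb, followed by Ncl (nucleolin) at 35.6 and Nop10 at 34.9 CPM per kb. Pes1, Nhp2 and Ubtf came next at 22.8, 21.8 and 19.1 CPM per kb, and the lowest levels were those of Wdr12 at 1.55 and Polr1e at 1.68 CPM per kb. Myc was at 6.91 CPM per kb. These ranks depend on exon lengths, which are unions over all GENCODE transcripts of a gene, 2.67 kb for Npm1, 10.2 kb for Ncl and 12 kb for Wdr12, while reads were counted over RefSeq genes. In CPM, Ncl was at 363 and Npm1 at 216, and Polr1e was lowest at 6.53. In GENCODE the exons of 16 members overlap exons of another gene: Polr1a (Gm26628), Nop56 (Idh3b), Rrp9 (Parp3), Dkc1 (Mpp1), Nhp2 (Rmnd5b), Wdr43 (CT010429.2), Nop14 (Gm15522), Imp4 (Gm28306), Tsr1 (Srr), Bop1 (Mroh1), Pes1 (4930556J24Rik), Wdr12 (Carf), Rrp1b (Hsf2bp), Noc2l (Samd11), Gnl3 (Pbrm1) and Mybbp1a (Spns2). Reads were counted without strand over RefSeq genes. In shared exons, reads of a member may have been left uncounted, or counted reads may come from the neighbour. Npm1 also has processed pseudogenes in the mouse genome.

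The 41 members together summed to 1775, 1826, 1623 and 1664 CPM (WT) and 1783, 1721, 1822 and 2216 CPM (Glis3-Pax8Cre) on ND, and 1760.0, 1703, 1737 and 1764 CPM (WT) and 2046, 2138, 2079 and 2115 CPM (Glis3-Pax8Cre) on LID. All 4 Glis3-Pax8Cre(LID) mice lay above all 4 WT(LID) mice, and on ND the groups overlapped. The median coefficient of variation of the members was 8.98% among WT and 14.7% among Glis3-Pax8Cre mice on ND, and 5.05% and 8.25% on LID. Over all genes tested it was 11.6%, 16.7%, 9.06% and 14% in the same order, and without replicate 4 the Glis3-Pax8Cre(ND) members had 7.61% and all genes 10.1%.

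**Figure D2:**
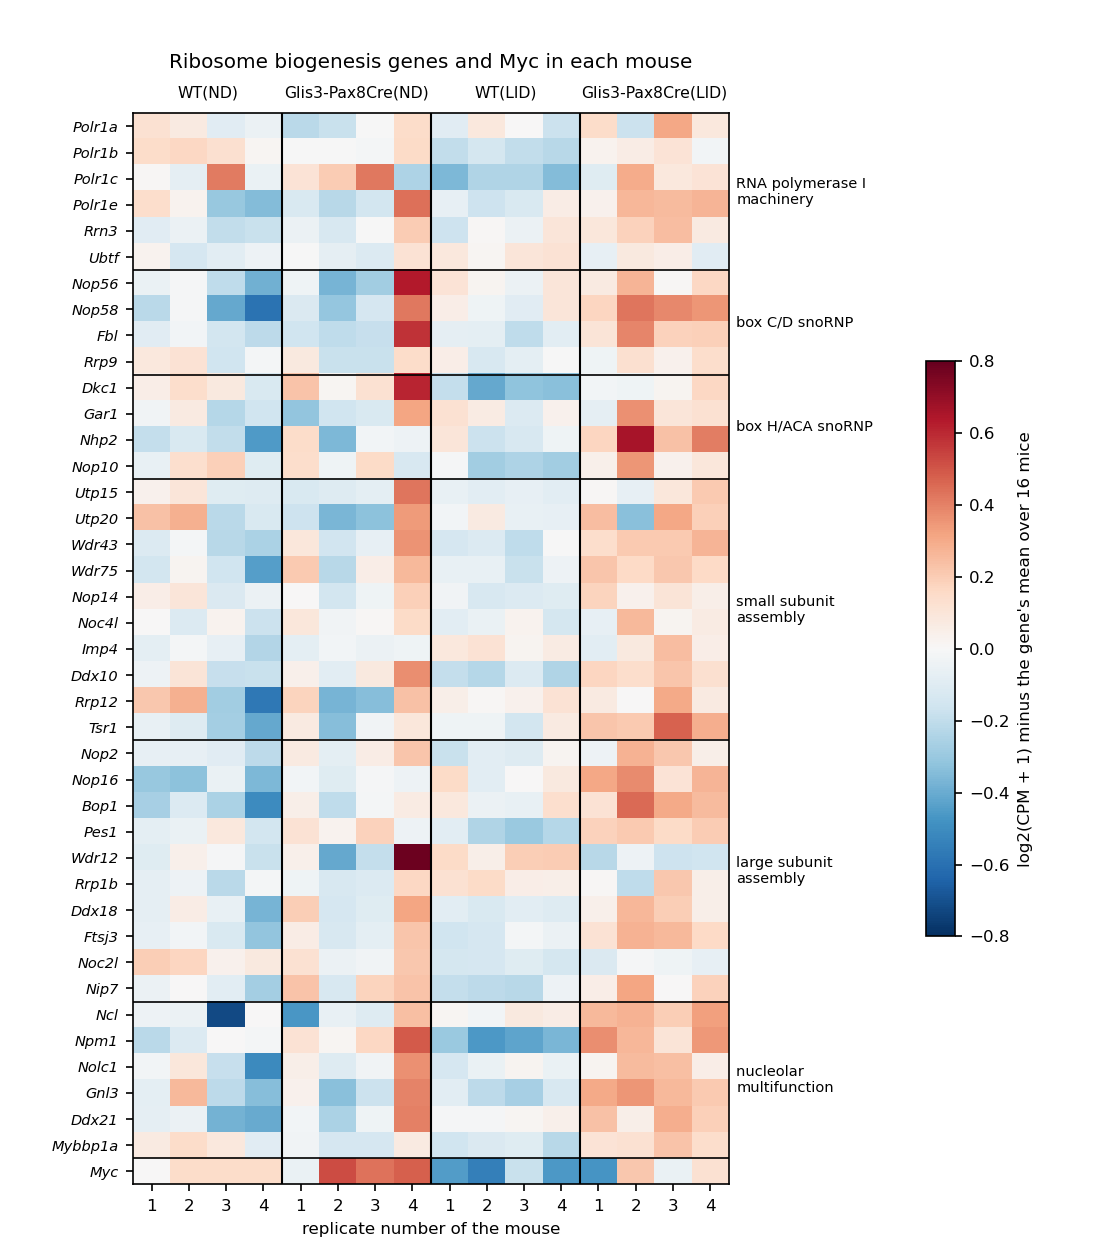
Level of each member (lines, by role) in each mouse (columns, by group) as log2 of CPM + 1 against the mean of that gene over the 16 mice. Most members are higher in the Glis3-Pax8Cre(LID) columns than in the WT(LID) columns, and Glis3-Pax8Cre(ND) replicate 4 differs from its group.

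Of the 41 members, 15 were called higher for genotype under LID (Glis3-Pax8Cre over WT) and the other 26 did not pass, where called means an adjusted p under 0.05 in edgeR's quasi-likelihood test over all 16630 genes, with all 16 mice and TMM scaling unless another setting is named. That is 36.6% of the members, and of all genes tested 14.9% were called higher. None was called lower in edgeR, against 15.4% of all genes. At an unadjusted p under 0.05 it was 24 higher and 0 lower (20.3% and 20% of all genes), and in DESeq2 17 and 0 (16.6% and 16.9%). The median log2 fold change of the members was 0.25, against 0.01 over all genes, and 38 of 41 were positive, with Wdr12, Ubtf and Rrp1b negative. In 22 members all 4 Glis3-Pax8Cre(LID) mice lay above all 4 WT(LID) mice, as in 17.7% of all genes, and in 1 member, Wdr12, all lay below, as in 17.9%. Npm1 had the largest difference, 0.66, and Pes1 and Mybbp1a had among the smallest adjusted p. The count of members called higher was 8 without WT(LID) replicate 2 or without WT(LID) replicate 3 (11% and 10.6% of all genes). It was 20 without Glis3-Pax8Cre(ND) replicate 4 (17.1% of all genes), where Nop58, Fbl, Wdr75, Nop14 and Bop1 were added and Wdr12 was called lower. It was 26 with scaling by library size alone (24.8% of all genes), where Polr1a, Rrn3, Nop58, Fbl, Wdr75, Nop14, Noc4l, Nop2, Bop1, Ddx18 and Myc were added and Polr1b and Nop16 were at 0.40 and 0.38.

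Of the 41 members on ND, 1, Npm1, was called higher in Glis3-Pax8Cre(ND) than in WT(ND), 2.44% against 10.3% of all genes. None was called lower in edgeR, against 9.25% of all genes. At an unadjusted p under 0.05 it was 7 higher and 0 lower (18.2% and 15.6% of all genes), and in DESeq2 3 and 0 (13.4% and 10.8%). The median was 0.14 against 0.02 over all genes, and 33 of 41 were positive. Without Glis3-Pax8Cre(ND) replicate 4 the median was 0.08 and Npm1 was no longer called, without Glis3-Pax8Cre(ND) replicate 2 it was 0.21 with 5 members called higher (10.1% of all genes), and without WT(ND) replicate 3 it was 0.17 with 2 (11.9%). With scaling by library size alone it was 0.27 against 0.14 over all genes, with 40 of 41 positive and 3 called higher (16.4% of all genes), Npm1 with Nop16 and Bop1.

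In WT mice on LID against ND, 2 members were called higher, Nop16 and Bop1, 4.88% against 20.9% of all genes, and 7 lower, 17.1%, near the 20.8% of all genes: Polr1b, Polr1c, Dkc1, Noc2l, Npm1, Mybbp1a and Myc. The median was 0.02, with 23 of 41 positive, beside −0.03 over all genes. Myc had the largest change, −0.55. The count called lower was 4 without WT(ND) replicate 3 or without WT(LID) replicate 2 (18% and 17% of all genes), and the count called higher was 4 without Glis3-Pax8Cre(ND) replicate 4 and 1 without WT(ND) replicate 4 (24% and 18.4%). With scaling by library size alone 0 were called higher in edgeR and 9 lower (14.6% and 31.3% of all genes), and the members' median was −0.13. That of all genes was −0.18, so the sign of the members' median turned with the scaling while their distance from all genes stayed at 0.05. Under TMM the members' median was −0.04 without WT(ND) replicate 4 and 0.07 without WT(ND) replicate 2, so its sign also turned with 1 mouse. With library size alone Nop16 and Bop1 were at 0.15 and 0.16, and Noc2l, Npm1 and Mybbp1a at −0.42, −0.46 and −0.37. At an unadjusted p under 0.05, 3 members were higher and 9 lower under TMM (24.2% and 25.1% of all genes), and DESeq2 called 3 and 7 (22.6% and 21.5%).

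In Glis3-Pax8Cre mice, 5 members were called higher on LID than on ND, which is 12.2% of them and near the 13.1% of all genes: Nhp2, Tsr1, Nop16, Bop1 and Mybbp1a. None was called lower in edgeR, against 12.3% of all genes. At an unadjusted p under 0.05 it was 8 higher and 1 lower (18.6% and 19.8% of all genes), and in DESeq2 5 and 1 (14.9% and 14.4%). The median was 0.11 against −0.03 over all genes, with 36 of 41 positive. With scaling by library size alone it was −0.03 against −0.17, so its sign turned while its distance from all genes was 0.14. Then 0 members were called higher and 2 lower, Noc2l and Myc, against 7.80% and 20.4% of all genes, and Tsr1, Nop16, Bop1 and Mybbp1a were at 0.22, 0.19, 0.18 and 0.07. Its counts moved most with 1 library. Without Glis3-Pax8Cre(ND) replicate 4, 17 members were called higher, the 5 above with Polr1e, Rrn3, Nop56, Nop58, Fbl, Gar1, Utp20, Wdr43, Ftsj3, Ncl, Gnl3 and Ddx21, against 14.6% of all genes, with a median of 0.17 against −0.01. Without the mouse of each group highest in thymocyte markers it was 8 members (12.4% of all genes), and 1 without Glis3-Pax8Cre(ND) replicate 2 (10.4%). It was 2 without Glis3-Pax8Cre(LID) replicate 3 and 3 without Glis3-Pax8Cre(LID) replicate 2 (10.5% and 11.6%). With replicate number as a block it was 3 higher and 1 lower in the fit of 16 mice (12.7% and 11.6% of all genes). In the 8 Glis3-Pax8Cre mice alone with that block, the 5 members did not pass (adjusted p = 0.0640 to 0.198) and Myc was lower, −0.42 (adjusted p = 0.0300). Of all genes 9.69% were called higher and 8.45% lower in that fit.

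Whether the effect of genotype differed between diets was tested by the interaction, which is the log2 fold change of diet in Glis3-Pax8Cre minus that in WT. It was called positive for 2 members, Polr1b and Mybbp1a, which at 4.88% is near the 4.43% of all genes, and for none negative in edgeR, against 7.41%. At an unadjusted p under 0.05 it was 5 higher and 0 lower (12.1% and 14.5% of all genes), and in DESeq2 2 and 0 (6.58% and 10.1%). The median interaction of the members was 0.13 against −0.01 over all genes, and it was 0.06 without Glis3-Pax8Cre(ND) replicate 2 and 0.20 without Glis3-Pax8Cre(ND) replicate 4. For the other members the larger number of calls under LID than on ND is not shown to be a difference between the diets. Without Glis3-Pax8Cre(ND) replicate 4 the interaction was called for Polr1b, Fbl, Npm1 and Mybbp1a (4.28% of all genes), and leaving out other mice gave 1 or 2 members. Each group enters a comparison of genotype and one of diet, so a gene's values in those comparisons share mice and are given side by side only.

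**Figure D3:**
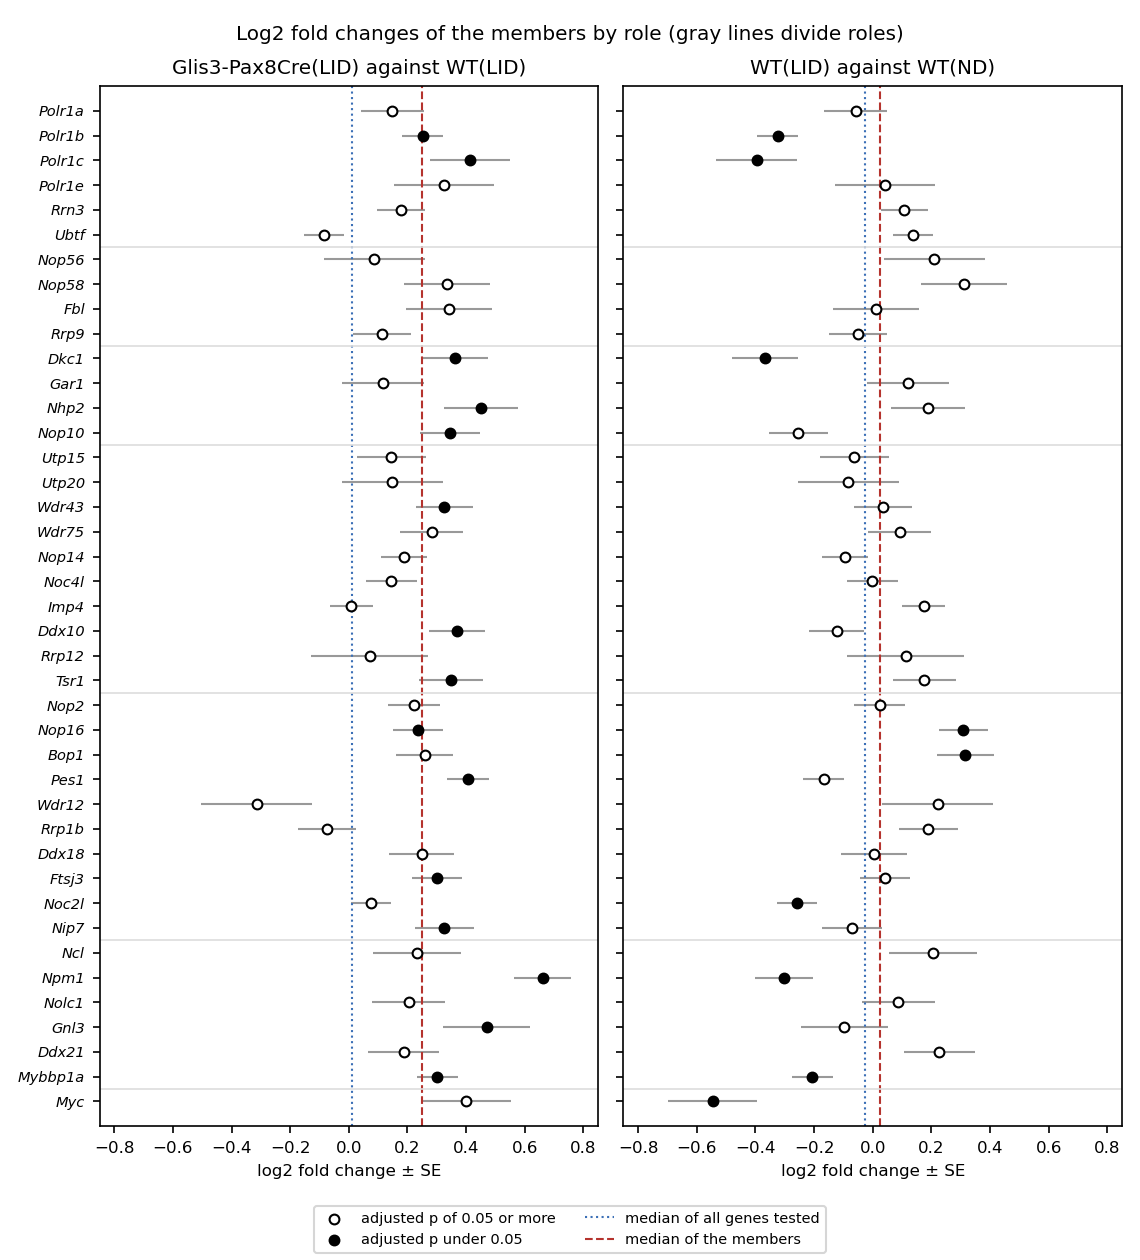
Log2 fold change of each member, ordered by role, in the comparisons of genotype under LID and of diet in WT, with filled points for members called and bars of 1 SE. Under LID 38 of 41 members lie above 0 for genotype; with scaling by library size alone the median of all genes was 0.16 for genotype under LID and −0.18 for diet in WT.

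Members can also be set beside their promoters. RefSeq promoter windows of 300 bases on GRCm38.p6, with 250 bases before the start and 50 after it, were held for 36 of the 41 members, in 45 windows. Bop1, Fbl, Myc, Npm1 and Rrp12 were not matched. The canonical E-box CACGTG was found in the windows of 8 of 36 members (22.2%) and in 8.09% of 27025 genes. CACGCG, a variant that MYC also binds, was found on either strand in 14 members (38.9%) and in 10.5% of genes, and either of them in 20 members (55.6%) and 17.2% of genes. Of the 15 matched members that were called in any comparison 11 held one, and of the 21 others 9. GGGCGG, a GC box, was in 30 members (83.3%) and 38.2% of genes, and TGGGGGGT, a sequence bound by GLIS factors, was in none of the 36 and in 1.79% of genes. A match describes letters only, and matches can share bases. The 27025 genes were not limited to those tested or matched to the members in base content. A higher share among the members is therefore not read as a result. The 250 bases before the start are shown on the plus strand, with matches of the E-box and of its variant, in either orientation, in capitals, for Mybbp1a and Pes1 because both were called under LID, and for Rrn3 and Nop2 because they hold CACGTG before the start and were not called. Mybbp1a and Pes1 also hold CACGTG, at 41 and 3 bases past the start, which lies outside the bases shown. Mybbp1a lies at chr11:72441077-72441326, Pes1 lies at chr11:3963725-3963974, Rrn3 lies at chr16:13780449-13780698 and Nop2 lies at chr6:125131633-125131882.
Mybbp1a: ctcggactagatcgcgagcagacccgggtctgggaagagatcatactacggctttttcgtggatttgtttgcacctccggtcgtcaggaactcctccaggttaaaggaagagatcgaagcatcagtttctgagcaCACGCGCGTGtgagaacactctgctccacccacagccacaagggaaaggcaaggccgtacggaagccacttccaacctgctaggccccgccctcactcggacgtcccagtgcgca
Pes1: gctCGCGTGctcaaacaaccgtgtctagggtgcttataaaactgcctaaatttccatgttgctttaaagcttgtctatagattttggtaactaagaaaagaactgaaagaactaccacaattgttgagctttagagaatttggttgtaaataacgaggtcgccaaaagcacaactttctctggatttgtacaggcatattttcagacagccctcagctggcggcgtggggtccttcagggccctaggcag
Rrn3: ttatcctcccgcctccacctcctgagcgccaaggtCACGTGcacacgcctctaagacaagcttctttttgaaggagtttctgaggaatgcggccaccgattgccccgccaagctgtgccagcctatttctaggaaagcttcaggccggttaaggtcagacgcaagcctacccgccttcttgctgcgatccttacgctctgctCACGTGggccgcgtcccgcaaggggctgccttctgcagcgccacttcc
Nop2: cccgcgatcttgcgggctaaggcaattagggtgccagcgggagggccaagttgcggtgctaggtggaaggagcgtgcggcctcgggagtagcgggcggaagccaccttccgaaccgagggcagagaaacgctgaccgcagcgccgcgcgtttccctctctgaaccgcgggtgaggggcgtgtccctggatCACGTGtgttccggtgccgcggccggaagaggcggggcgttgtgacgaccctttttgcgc

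The role groups follow, from transcription of ribosomal RNA to subunit assembly, and beside their counts 14.9% of all genes were called higher and 15.4% lower for genotype under LID, 10.3% and 9.25% on ND, 20.9% and 20.8% for diet in WT, 13.1% and 12.3% in Glis3-Pax8Cre, and 4.43% and 7.41% for the interaction. RNA polymerase I machinery has 6 members: Polr1a and Polr1b code for the large catalytic subunits, Polr1c for a subunit shared with RNA polymerase III, Polr1e for an associated subunit, Rrn3 for the initiation factor and Ubtf for a factor that binds ribosomal DNA. Polr1b was at 17.5, 17.8, 17.3 and 16 CPM (WT) and 15.7, 15.7, 15.6 and 17.6 CPM (Glis3-Pax8Cre) on ND, and 13.6, 14.2, 13.6 and 13.3 CPM (WT) and 16.1, 16.5, 17.1 and 15.5 CPM (Glis3-Pax8Cre) on LID. WT(LID) was lowest, with all 4 mice under all mice of the other groups, and Glis3-Pax8Cre(LID) overlapped ND. Polr1b was called higher for genotype under LID, 0.25 ± 0.07 (SE; edgeR adjusted p = 0.0122), and lower for diet in WT, −0.32 ± 0.07 (SE; edgeR adjusted p = 0.00154), each in 4 of 4 mice, with an interaction of 0.33 ± 0.10 (SE; edgeR adjusted p = 0.0369). Polr1b lost the interaction when any 1 of WT(ND) replicates 1, 2 and 3, Glis3-Pax8Cre(ND) replicates 1, 2 and 3, WT(LID) replicates 1, 2, 3 and 4 and Glis3-Pax8Cre(LID) replicates 1 and 3 was left out, and with scaling by library size alone, with no filter on low counts, with a replicate block, without the mouse of each group highest in thymocyte markers and with a skeletal muscle score as covariate (adjusted p = 0.0528 to 0.0959, against 0.00809 to 0.0959 over all alternatives). Polr1c was at 37.8, 35.7, 50.6 and 36.3 CPM (WT) and 40.7, 43.4, 50.6 and 31.5 CPM (Glis3-Pax8Cre) on ND, and 29.1, 31.7, 31.7 and 29.3 CPM (WT) and 35.1, 46.4, 39.98 and 40.7 CPM (Glis3-Pax8Cre) on LID. The WT(LID) mice lay under all WT(ND) and Glis3-Pax8Cre(LID) mice, Glis3-Pax8Cre(ND) replicate 4 lay among them, and WT(ND) replicate 3 was high for its group. Polr1c was called for genotype under LID, 0.41 (edgeR adjusted p = 0.0326), and for diet in WT, −0.40 (edgeR adjusted p = 0.0298), each with 4 of 4 mice beyond the other group. For genotype it was lost when any 1 of WT(LID) replicates 1, 2, 3 and 4 and Glis3-Pax8Cre(LID) replicates 2, 3 and 4 was left out (adjusted p = 0.0586 to 0.0975, against 0.00428 to 0.0975 over all alternatives). For diet it was lost when any 1 of WT(ND) replicate 3 and WT(LID) replicates 1, 2, 3 and 4 was left out (adjusted p = 0.0522 to 0.130, against 0.00313 to 0.130 over all alternatives). Without WT(ND) replicate 3 the change with diet was −0.26.

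Ubtf was at 127, 114, 118 and 122 CPM (WT) and 125, 119, 116 and 136 CPM (Glis3-Pax8Cre) on ND, and 133, 126, 134 and 136 CPM (WT) and 119, 132, 129.9 and 118 CPM (Glis3-Pax8Cre) on LID. The groups overlapped throughout, with the highest values in Glis3-Pax8Cre(ND) replicate 4 and WT(LID) replicate 4. Ubtf had the highest level per kb of the role and was called in no comparison or alternative (−0.08 for genotype under LID, adjusted p = 0.393). For genotype under LID, Polr1a, Polr1e and Rrn3 were at 0.15, 0.32 and 0.18 and were not called. Polr1a and Rrn3 were called higher with scaling by library size alone, Polr1e in a fit of the 8 mice compared, and Polr1e and Rrn3 for diet in Glis3-Pax8Cre without Glis3-Pax8Cre(ND) replicate 4. The role's median was 0.21 for genotype under LID, 0.05 on ND, −0.01 for diet in WT and 0.08 in Glis3-Pax8Cre. Of the 9 other RNA polymerase I genes, 3 were called higher for genotype under LID and 1 lower for diet in WT. Rn45s, the entry for the ribosomal RNA precursor, was at 1806 CPM on average and −0.10 for genotype under LID (adjusted p = 0.8). Libraries were made after mRNA isolation, so this value is not a measure of the amount of precursor.

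Box C/D small nucleolar RNPs place methyl groups on ribosomal RNA. Nop56, Nop58 and the methyltransferase gene Fbl code for their core proteins, and Rrp9 for a protein of the particle that guides early cleavage. Nop56 was at 36.3, 37.5, 32.7 and 28.7 CPM (WT) and 36.8, 28.9, 31.0 and 59.2 CPM (Glis3-Pax8Cre) on ND, and 40.9, 38.4, 36.6 and 40.4 CPM (WT) and 39.8, 45.8, 38.0 and 42.5 CPM (Glis3-Pax8Cre) on LID. Glis3-Pax8Cre(ND) replicate 4 was the highest mouse, and the other ND mice of both genotypes lay under all Glis3-Pax8Cre(LID) mice. None of the 4 members was called in any comparison by edgeR with all mice and TMM scaling. For genotype under LID 2 were higher at an unadjusted p under 0.05 and DESeq2 called 0. Nop58 and Fbl lay at 0.34 and 0.34 for genotype under LID, with 4 of 4 Glis3-Pax8Cre(LID) mice above all WT(LID) mice (adjusted p = 0.0976 and 0.0933), and Nop56 and Rrp9 at 0.09 and 0.11. Nop58 was called higher for genotype under LID without Glis3-Pax8Cre(ND) replicate 4, with scaling by library size alone or in a fit of the 8 mice compared. Fbl was called there without Glis3-Pax8Cre(ND) replicate 4, with scaling by library size alone, with a thymocyte score as covariate, in a fit of the 8 mice compared or without the mouse of each group highest in thymocyte markers. With diet in Glis3-Pax8Cre, Nop56 and Fbl were called higher without Glis3-Pax8Cre(ND) replicate 4 or without the mouse of each group highest in thymocyte markers, and Nop58 without Glis3-Pax8Cre(ND) replicate 4, with a thymocyte score as covariate or without the mouse of each group highest in thymocyte markers. Nop58 was also called higher for diet in WT without any 1 of WT(ND) replicate 2 and Glis3-Pax8Cre(ND) replicate 4, with a thymocyte score as covariate or without the mouse of each group highest in thymocyte markers.

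Box H/ACA small nucleolar RNPs turn uridine into pseudouridine. Dkc1 codes for the pseudouridine synthase and Gar1, Nhp2 and Nop10 for its partners, which are also parts of telomerase. Dkc1 was at 25.4, 27.1, 25.9 and 22.5 CPM (WT) and 28.9, 24.8, 26.7 and 37.9 CPM (Glis3-Pax8Cre) on ND, and 21.4, 18.2, 19.4 and 19.2 CPM (WT) and 24.1, 23.9, 24.9 and 27.6 CPM (Glis3-Pax8Cre) on LID. Glis3-Pax8Cre(ND) replicate 4 was highest and WT(LID) lowest, with each WT(LID) mouse under every other mouse. Dkc1 was called higher for genotype under LID, 0.36 ± 0.11 (SE; edgeR adjusted p = 0.0245), and lower for diet in WT, −0.37 ± 0.11 (SE; edgeR adjusted p = 0.0166). The genotype call for Dkc1 was lost when any 1 of WT(LID) replicates 2, 3 and 4 and Glis3-Pax8Cre(LID) replicate 4 was left out (adjusted p = 0.0567 to 0.0787, against 0.00304 to 0.0787 over all alternatives). The diet call for Dkc1 was lost without WT(LID) replicate 2 (adjusted p = 0.0563, against 0.00184 to 0.0563 over all alternatives). Nhp2 was at 21.3, 22.5, 21.2 and 17.7 CPM (WT) and 27.2, 18.9, 24.1 and 23.8 CPM (Glis3-Pax8Cre) on ND, and 26.3, 21.7, 22.3 and 23.9 CPM (WT) and 27.7, 39.3, 29.0 and 32.9 CPM (Glis3-Pax8Cre) on LID. All 4 Glis3-Pax8Cre(LID) mice lay above all mice of the other groups. Nhp2 was called higher for genotype under LID, 0.45 ± 0.13 (SE; edgeR adjusted p = 0.0132), and for diet in Glis3-Pax8Cre, 0.46 ± 0.13 (SE; edgeR adjusted p = 0.0157). Nhp2 lost the genotype call without the mouse of each group highest in thymocyte markers (adjusted p = 0.0768, against 0.00473 to 0.0768 over all alternatives). Nhp2 lost the diet call when any 1 of Glis3-Pax8Cre(ND) replicate 2 and Glis3-Pax8Cre(LID) replicate 2 was left out, and with scaling by library size alone, in a fit of the 8 mice compared, in the 8 Glis3-Pax8Cre mice with a replicate block and without the mouse of each group highest in thymocyte markers (adjusted p = 0.0522 to 0.129, against 0.00491 to 0.129 over all alternatives).

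Nop10 was at 36.9, 42.2, 43.9 and 35.9 CPM (WT) and 42.5, 37.5, 42.8 and 35 CPM (Glis3-Pax8Cre) on ND, and 38.2, 31.5, 32.2 and 31.4 CPM (WT) and 39.6, 49.2, 39.4 and 40.9 CPM (Glis3-Pax8Cre) on LID. WT(LID) replicate 1 and Glis3-Pax8Cre(LID) replicate 2 lay above their groups, yet all Glis3-Pax8Cre(LID) mice were above all WT(LID) mice. Nop10 was called higher for genotype under LID, 0.34 ± 0.10 (SE; edgeR adjusted p = 0.0177). Nop10 lost it when any 1 of WT(LID) replicates 2, 3 and 4 and Glis3-Pax8Cre(LID) replicate 2 was left out, and without the mouse of each group highest in thymocyte markers (adjusted p = 0.0524 to 0.0622, against 0.00626 to 0.0622 over all alternatives). Gar1 was not called, at 0.12 for genotype under LID and 0.20 for diet in Glis3-Pax8Cre, and was called higher for that diet comparison without Glis3-Pax8Cre(ND) replicate 4. The role had the highest median of the multi-gene roles for genotype under LID, 0.35, with 3 of 4 members called, against 14.9% of all genes.

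Small subunit assembly has 10 members. Utp15, Utp20, Wdr43, Wdr75, Nop14, Noc4l and Imp4 code for parts of the small subunit processome, Ddx10 for an RNA helicase, and Rrp12 and Tsr1 for factors of later maturation. For genotype under LID 3 of 10 were called higher, Wdr43, Ddx10 and Tsr1, against 14.9% of all genes, and all 10 were positive, with a median of 0.17. Tsr1 was at 25.1, 24.3, 21.5 and 19.4 CPM (WT) and 27.6, 20.4, 25.6 and 27.9 CPM (Glis3-Pax8Cre) on ND, and 25.5, 25.6, 23.5 and 27.6 CPM (WT) and 30.7, 30.4, 36.6 and 32.2 CPM (Glis3-Pax8Cre) on LID. Each Glis3-Pax8Cre(LID) mouse was above every mouse of the other groups. Tsr1 was called higher for genotype under LID, 0.35 ± 0.11 (SE; edgeR adjusted p = 0.0232), and for diet in Glis3-Pax8Cre, 0.36 ± 0.11 (SE; edgeR adjusted p = 0.0245). Tsr1 lost the genotype call when any 1 of WT(LID) replicates 1, 2 and 3 and Glis3-Pax8Cre(LID) replicate 3 was left out, and without the mouse of each group highest in thymocyte markers (adjusted p = 0.0532 to 0.0821, against 0.00753 to 0.0821 over all alternatives). Tsr1 lost the diet call when any 1 of Glis3-Pax8Cre(ND) replicate 2 and Glis3-Pax8Cre(LID) replicate 3 was left out, and with scaling by library size alone, in a fit of the 8 mice compared and in the 8 Glis3-Pax8Cre mice with a replicate block (adjusted p = 0.0640 to 0.216, against 0.0109 to 0.216 over all alternatives). Wdr43 and Ddx10 were at 0.33 (edgeR adjusted p = 0.0198) and 0.37 (edgeR adjusted p = 0.00819), with 4 of 4 mice above WT(LID). Wdr43 lost its call when any 1 of WT(LID) replicate 3 and Glis3-Pax8Cre(LID) replicate 4 was left out (adjusted p = 0.0515 to 0.0650, against 0.00276 to 0.0650 over all alternatives).

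Nop14 was at 28.5, 29.4, 25.2 and 26.5 CPM (WT) and 27.5, 24.6, 26.7 and 31.4 CPM (Glis3-Pax8Cre) on ND, and 26.8, 25.0, 25.3 and 25.5 CPM (WT) and 31.1, 28.1, 29.5 and 28.3 CPM (Glis3-Pax8Cre) on LID. The Glis3-Pax8Cre(LID) mice lay above the WT(LID) mice, and both groups overlapped ND mice. Nop14, with the highest level per kb of the role, was at 0.19 (edgeR adjusted p = 0.0819) for genotype under LID and was not called, but was called higher without Glis3-Pax8Cre(ND) replicate 4 or with scaling by library size alone. The 6 remaining members, Utp15, Utp20, Wdr75, Noc4l, Imp4 and Rrp12, lay between 0.01 and 0.28 for genotype under LID and were called in no comparison with all mice and TMM scaling. Wdr75 was called higher for genotype under LID without any 1 of WT(ND) replicate 4 and Glis3-Pax8Cre(ND) replicates 2 and 4, with scaling by library size alone or in a fit of the 8 mice compared, and on ND without Glis3-Pax8Cre(ND) replicate 2. Noc4l was called higher under LID with scaling by library size alone. Utp20 was called higher for diet in Glis3-Pax8Cre without Glis3-Pax8Cre(ND) replicate 4, and Imp4 for diet in WT without Glis3-Pax8Cre(LID) replicate 3, in DESeq2 or in a fit of the 8 mice compared.

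Large subunit assembly also has 10 members. Pes1, Bop1 and Wdr12 code for a complex that acts on the large subunit precursor, Nop2 and Ftsj3 for RNA methyltransferases, Ddx18 for a helicase, and Nop16, Rrp1b, Noc2l and Nip7 for further assembly factors. Pes1 was at 64.7, 65.7, 72.5 and 61.8 CPM (WT) and 74.2, 69.8, 78.0 and 66.5 CPM (Glis3-Pax8Cre) on ND, and 64.4, 57.7, 55.5 and 58.1 CPM (WT) and 77.9, 79.3, 76.2 and 79.0 CPM (Glis3-Pax8Cre) on LID. All 4 WT(LID) mice were under all Glis3-Pax8Cre(LID) mice, which lay close together, and ND mice lay between and overlapped both groups. Pes1 was called higher for genotype under LID, 0.41 ± 0.07 (SE; edgeR adjusted p = 0.000436), and kept its call in each alternative except the threshold of adjusted p under 0.01 with a fold over 2, which no member passed. Nop16 was at 22, 21.7, 26.3 and 21.2 CPM (WT) and 27.0, 25.5, 27.2 and 26.6 CPM (Glis3-Pax8Cre) on ND, and 30.6, 25.9, 27.5 and 29.0 CPM (WT) and 34.2, 35.9, 29.6 and 33.4 CPM (Glis3-Pax8Cre) on LID. WT(ND) was lowest apart from replicate 3, and both LID groups lay above their ND groups but for WT(LID) replicate 2. Nop16 was called higher for genotype under LID, 0.24 ± 0.08 (SE; edgeR adjusted p = 0.0445), for diet in WT, 0.31 ± 0.08 (SE; edgeR adjusted p = 0.00788), and for diet in Glis3-Pax8Cre, 0.32 ± 0.08 (SE; edgeR adjusted p = 0.0112). Nop16 lost the genotype call when any 1 of WT(ND) replicates 1, 2 and 4, Glis3-Pax8Cre(ND) replicates 1, 2 and 3, WT(LID) replicates 2, 3 and 4 and Glis3-Pax8Cre(LID) replicates 1, 2 and 4 was left out, and with Tg left out before scaling, with no filter on low counts, with genes of at least 10 counts in every mouse, with a replicate block, in a fit of the 8 mice compared, without the mouse of each group highest in thymocyte markers and with a skeletal muscle score as covariate (adjusted p = 0.0517 to 0.157, against 0.0163 to 0.157 over all alternatives). The call for diet in WT was lost with scaling by library size alone (adjusted p = 0.293, against 0.00139 to 0.293 over all alternatives). The call for diet in Glis3-Pax8Cre was lost with scaling by library size alone and in the 8 Glis3-Pax8Cre mice with a replicate block (adjusted p = 0.0799 to 0.219, against 0.00256 to 0.219 over all alternatives).

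Bop1 was called higher for diet in WT, 0.32 (edgeR adjusted p = 0.0153), and in Glis3-Pax8Cre, 0.31 (edgeR adjusted p = 0.0265), with 4 of 4 LID mice above all ND mice in both. Bop1 lost the call in WT without WT(ND) replicate 4, and with scaling by library size alone (adjusted p = 0.0533 to 0.328, against 0.00627 to 0.328 over all alternatives). Bop1 lost the call in Glis3-Pax8Cre when any 1 of Glis3-Pax8Cre(ND) replicate 2 and Glis3-Pax8Cre(LID) replicates 2 and 3 was left out, and with scaling by library size alone, with a replicate block, in a fit of the 8 mice compared and in the 8 Glis3-Pax8Cre mice with a replicate block (adjusted p = 0.0504 to 0.308, against 0.0146 to 0.308 over all alternatives). Noc2l was called lower for diet in WT, −0.26 (edgeR adjusted p = 0.00671), with 4 of 4 mice below WT(ND). Ftsj3 and Nip7 were called higher for genotype under LID at 0.30 (edgeR adjusted p = 0.0152) and 0.33 (edgeR adjusted p = 0.0235), with 4 of 4 mice above WT(LID). Nip7 lost its call when any 1 of WT(LID) replicates 1, 2 and 3 and Glis3-Pax8Cre(LID) replicates 2 and 4 was left out, and without the mouse of each group highest in thymocyte markers (adjusted p = 0.0563 to 0.112, against 0.0115 to 0.112 over all alternatives). Wdr12 lay the other way, −0.31 (edgeR adjusted p = 0.236), with a mean of 20.3 ± 1.08 CPM (SD, n = 4) in the WT mice and 16.4 ± 0.953 CPM in the Glis3-Pax8Cre mice on LID. It was called lower without Glis3-Pax8Cre(ND) replicate 4 or in a fit of the 8 mice compared, and higher for diet in WT in a fit of the 8 mice compared. Nop2, Rrp1b and Ddx18 were at 0.22, −0.08 and 0.25 for genotype under LID and were called in no comparison with all mice and TMM scaling. Nop2 was called higher there without Glis3-Pax8Cre(LID) replicate 1 or with scaling by library size alone, and Ddx18 with scaling by library size alone or in a fit of the 8 mice compared. Bop1, at 0.26 for genotype under LID, was called higher without any 1 of WT(ND) replicates 2 and 4, Glis3-Pax8Cre(ND) replicates 2 and 4 and Glis3-Pax8Cre(LID) replicate 1, in DESeq2, with scaling by library size alone or in a fit of the 8 mice compared.

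A further 6 members code for abundant nucleolar proteins with several roles. Npm1 and Ncl code for nucleophosmin and nucleolin, Nolc1 for a phosphoprotein that binds small nucleolar RNPs, Gnl3 for nucleostemin, Ddx21 for a helicase, and Mybbp1a for a protein of RNA polymerase I transcription and ribosome assembly. Npm1 was at 182, 197, 212 and 210.4 CPM (WT) and 230.5, 215, 238 and 298 CPM (Glis3-Pax8Cre) on ND, and 173, 154, 159 and 165 CPM (WT) and 274, 256, 228 and 271 CPM (Glis3-Pax8Cre) on LID. WT(LID) was lowest in each mouse, Glis3-Pax8Cre(LID) lay above both WT groups, and Glis3-Pax8Cre(ND) lay above WT(ND), with replicate 4 the highest of all. Npm1 was called higher for genotype under LID, 0.66 ± 0.10 (SE; edgeR adjusted p = 0.000125), in 4 of 4 mice and in each alternative but the stricter threshold. On ND it was 0.29 ± 0.10 (SE; edgeR adjusted p = 0.0489), in 4 of 4 mice, and for diet in WT −0.30 ± 0.10 (SE; edgeR adjusted p = 0.0221), in 4 of 4 mice. For diet in Glis3-Pax8Cre it was 0.07 and was not called. The ND call was lost when any 1 of WT(ND) replicates 1, 2 and 4, Glis3-Pax8Cre(ND) replicates 1, 3 and 4, WT(LID) replicates 1, 2, 3 and 4 and Glis3-Pax8Cre(LID) replicates 1, 2 and 4 was left out, and with no filter on low counts, with a replicate block, with a thymocyte score as covariate, in a fit of the 8 mice compared, without the mouse of each group highest in thymocyte markers and with a skeletal muscle score as covariate (adjusted p = 0.0507 to 0.345, against 0.0174 to 0.345 over all alternatives). Npm1 on ND was at 0.19 without Glis3-Pax8Cre(ND) replicate 4 and 0.14 without the mouse of each group highest in thymocyte markers. The call for diet in WT was lost when any 1 of WT(ND) replicates 3 and 4 and WT(LID) replicates 2 and 3 was left out (adjusted p = 0.0606 to 0.0704, against 0.00515 to 0.0704 over all alternatives).

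Gnl3 was at 22.4, 28.5, 20.3 and 18.5 CPM (WT) and 24.3, 18.5, 20.9 and 31.5 CPM (Glis3-Pax8Cre) on ND, and 22.3, 20.3, 19.6 and 21.6 CPM (WT) and 29.4, 30.5, 28.6 and 27.5 CPM (Glis3-Pax8Cre) on LID. The Glis3-Pax8Cre(LID) mice lay above all WT(LID) mice, while Glis3-Pax8Cre(ND) replicate 4 was the highest mouse. Gnl3 was called higher for genotype under LID, 0.47 ± 0.15 (SE; edgeR adjusted p = 0.0249). Gnl3 lost its call when any 1 of WT(LID) replicates 2 and 3 and Glis3-Pax8Cre(LID) replicate 2 was left out (adjusted p = 0.0564 to 0.0713, against 0.00058 to 0.0713 over all alternatives). Mybbp1a was at 89.7, 94.3, 90.3 and 79.9 CPM (WT) and 83.6, 77.5, 77.4 and 89.7 CPM (Glis3-Pax8Cre) on ND, and 76.1, 78.5, 79.5 and 72.8 CPM (WT) and 91.9, 92.6, 99.98 and 93.8 CPM (Glis3-Pax8Cre) on LID. Glis3-Pax8Cre(LID) lay above WT(LID) and Glis3-Pax8Cre(ND), and WT(LID) below WT(ND), in each case with no overlap. Mybbp1a was called for genotype under LID, 0.30 ± 0.07 (SE; edgeR adjusted p = 0.00400), for diet in WT, −0.21 ± 0.07 (SE; edgeR adjusted p = 0.0265), for diet in Glis3-Pax8Cre, 0.20 ± 0.07 (SE; edgeR adjusted p = 0.0423), and for the interaction, 0.41 ± 0.10 (SE; edgeR adjusted p = 0.0134), which held with each mouse left out. In WT the diet call was lost when any 1 of WT(ND) replicates 1, 2 and 3 and WT(LID) replicates 1 and 4 was left out, and without the mouse of each group highest in thymocyte markers (adjusted p = 0.0514 to 0.0815, against 0.00403 to 0.0815 over all alternatives). In Glis3-Pax8Cre the diet call was lost when any 1 of WT(ND) replicates 1 and 3, Glis3-Pax8Cre(ND) replicates 1, 2 and 3, WT(LID) replicates 1, 2 and 3 and Glis3-Pax8Cre(LID) replicates 1, 3 and 4 was left out, and with scaling by library size alone, with no filter on low counts, with genes of at least 10 counts in every mouse, with a replicate block, in a fit of the 8 mice compared and in the 8 Glis3-Pax8Cre mice with a replicate block (adjusted p = 0.0524 to 0.622, against 0.0154 to 0.622 over all alternatives). Ncl, Nolc1 and Ddx21 were at 0.23, 0.20 and 0.19 for genotype under LID, each with 4 of 4 mice above WT(LID), and were not called. Ncl was called higher in a fit of the 8 mice compared, and for diet in Glis3-Pax8Cre without any 1 of WT(ND) replicate 3 and Glis3-Pax8Cre(ND) replicate 4 or with a thymocyte score as covariate. Ddx21 was called higher for diet in Glis3-Pax8Cre without Glis3-Pax8Cre(ND) replicate 4 and in WT without Glis3-Pax8Cre(ND) replicate 4 or with a thymocyte score as covariate.

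**Figure D4:**
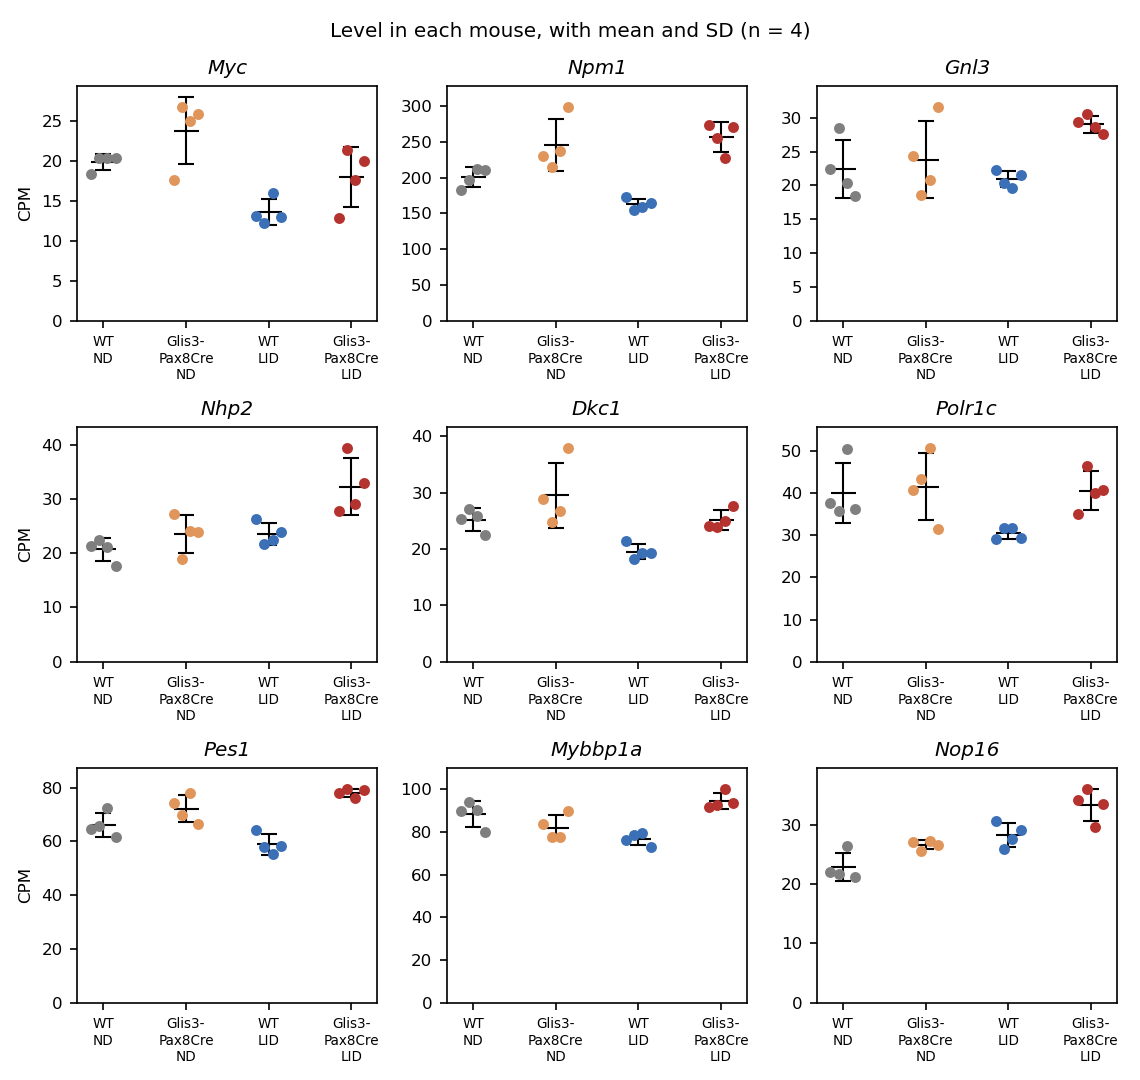
CPM of named members in each mouse by group, with 1 point per mouse, the mean and SD of each group and linear axes from 0. Npm1 and Pes1 are lower in WT(LID) than in Glis3-Pax8Cre(LID) in each mouse, and Myc is lower in WT(LID) than in WT(ND) in each mouse.

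Myc was at 18.3, 20.3, 20.3 and 20.3 CPM (WT) and 17.6, 26.6, 25.0 and 25.8 CPM (Glis3-Pax8Cre) on ND, and 13.1, 12.2, 16 and 13.0 CPM (WT) and 12.9, 21.3, 17.5 and 19.98 CPM (Glis3-Pax8Cre) on LID. All WT(LID) mice were under all WT(ND) mice, and in Glis3-Pax8Cre the groups overlapped: Glis3-Pax8Cre(LID) replicate 1 lay with WT(LID) and Glis3-Pax8Cre(ND) replicate 1 was low for its group. Myc was called lower for diet in WT, −0.55 ± 0.15 (SE; edgeR adjusted p = 0.00919), in 4 of 4 mice, and this held in each of the 27 alternatives other than the stricter threshold (adjusted p up to 0.0327). For diet in Glis3-Pax8Cre it was −0.41 ± 0.15 (SE; edgeR adjusted p = 0.0588), not called. It was called lower there when any 1 of Glis3-Pax8Cre(ND) replicate 1 and Glis3-Pax8Cre(LID) replicate 2 was left out, and in DESeq2, with scaling by library size alone, with genes of at least 10 counts in every mouse, with a replicate block and in the 8 Glis3-Pax8Cre mice with a replicate block (adjusted p = 0.0162 to 0.0447, against 0.0162 to 0.154 over all alternatives). For genotype Myc was 0.40 ± 0.15 (SE; edgeR adjusted p = 0.0578) under LID, with 3 of 4 Glis3-Pax8Cre(LID) mice above all WT(LID) mice, and 0.27 ± 0.15 (SE; edgeR adjusted p = 0.234) on ND, neither called. Under LID it was called higher when any 1 of Glis3-Pax8Cre(ND) replicate 1, WT(LID) replicate 3 and Glis3-Pax8Cre(LID) replicate 1 was left out, and in DESeq2, with scaling by library size alone, with a replicate block and with a thymocyte score as covariate (adjusted p = 0.00879 to 0.0479, against 0.00879 to 0.169 over all alternatives). The interaction was 0.14 ± 0.21 (SE; edgeR adjusted p = 0.741), so the fall with diet was not shown to differ between genotypes. In WT thyroids on LID, then, Myc was lower while 6 of the other 40 members were called lower and 2 higher, against 20.8% and 20.9% of all genes.

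Beside the lists that follow, 14.9% of all genes were called higher and 15.4% lower for genotype under LID, 10.3% and 9.25% on ND, 20.9% and 20.8% for diet in WT, 13.1% and 12.3% in Glis3-Pax8Cre, and 4.43% and 7.41% for the interaction. For diet in Glis3-Pax8Cre their counts are without a replicate block, which in the 8 Glis3-Pax8Cre mice alone ended each of the members' 5 calls. Of 12 genes of the MYC network, 0 were called higher by edgeR (0 at an unadjusted p under 0.05, 0 in DESeq2) and 1 lower for genotype under LID, Max (−0.57, adjusted p = 1.07e-05), the partner of MYC. For diet in WT 2 were higher and 5 lower, among them Mxd3 (3.06, adjusted p = 4.83e-05) up, and Mlxipl (−2.43, adjusted p = 6.58e-05) and Mxd1 (−0.68, adjusted p = 0.000316) down; Mxd1 and Mxd3 code for proteins that pair with MAX in place of MYC, and Mlxipl for a factor that responds to glucose. On ND the genotype count was 1 higher and 4 lower, and for diet in Glis3-Pax8Cre 1 and 3. Without Glis3-Pax8Cre(ND) replicate 4 these were 1 and 4, and 1 and 4. The interaction was called positive for 1 of the 12, Mycn (0.93, edgeR adjusted p = 0.0487), which was called in 8 of 26 alternatives. DESeq2 called 2 positive and 1 negative. Of 16 other MYC targets outside ribosome biogenesis, 5 were called higher and 1 lower for genotype under LID, including Apex1 (0.60, adjusted p = 0.000477), a DNA repair gene, and Hspe1 (0.53, adjusted p = 0.00801), a mitochondrial chaperone gene. For diet in WT it was 2 and 1, with Tfrc (1.64, adjusted p = 5.14e-05), the transferrin receptor, up and Ldha (−0.51, adjusted p = 0.00548), lactate dehydrogenase, down, and for diet in Glis3-Pax8Cre 7 higher, with Tfrc (1.28, adjusted p = 0.00098) and Srm (0.62, adjusted p = 0.0321), and 0 lower by edgeR (0 at an unadjusted p under 0.05, 0 in DESeq2). On ND 1 of them was called higher for genotype and 0 lower. Leaving out Glis3-Pax8Cre(ND) replicate 4 gave 0 and 1 on ND, and 6 and 0 for diet in Glis3-Pax8Cre. With 1 mouse left out, the targets called higher for genotype under LID were 2 to 6.

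A list of 131 other ribosome biogenesis genes was counted in the same way. For genotype under LID 43 were called higher and 2 lower, with a median of 0.19 against 0.25 for the members. On ND it was 11 and 1, with a median of 0.08. For diet it was 7 higher and 13 lower in WT (−0.06), and 10 and 2 in Glis3-Pax8Cre (0.07). Without Glis3-Pax8Cre(ND) replicate 4 it was 6 higher and 1 lower on ND (0.02), and 20 and 0 for diet in Glis3-Pax8Cre (0.13). With 1 mouse left out, the count called higher for genotype under LID was 27 to 47. Among 47 other small subunit genes, 13 were called higher for genotype under LID, including Heatr1 (0.61, adjusted p = 0.00362) and Rcl1 (0.50, adjusted p = 0.00067), and 2 lower, Ddx47 (−0.29, adjusted p = 0.0309) and Nat10 (−0.29, adjusted p = 0.0146). Among 51 other large subunit genes it was 19 higher, including Ddx31 (0.80, adjusted p = 0.000672) and Nsa2 (0.56, adjusted p = 1.75e-05), and among 24 genes of RNP assembly and the RNA exosome 8, including Xrn2 (0.62, adjusted p = 0.000301), which codes for an exonuclease. The interaction was called positive for 5 of the 131, Rcl1 (0.59), Nsa2 (0.33) and Naf1 (0.38) among them, the last 2 called in 9 of 26 alternatives each. That is 3.82%, near the 4.43% of all genes. It was 7 without Glis3-Pax8Cre(ND) replicate 4 (4.28% of all genes), and 1 to 7 with 1 mouse left out.

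Host genes of small nucleolar RNAs, whose introns hold the guide RNAs of the particles above, were looked at beside them. Of 13, 8 were called higher for genotype under LID, with a median of 0.70, and all 13 were positive. Zfas1 was at 14.9, 16.4, 19.9 and 23.2 CPM (WT) and 18.6, 23.2, 24.9 and 22.2 CPM (Glis3-Pax8Cre) on ND, and 17.7, 15.8, 15.3 and 16.6 CPM (WT) and 47.2, 44.1, 30.9 and 47.2 CPM (Glis3-Pax8Cre) on LID. All Glis3-Pax8Cre(LID) mice were above all mice of the other groups. Zfas1 was at 1.37 for genotype under LID (edgeR adjusted p = 7.7e-06), with an interaction of 1.11 (adjusted p = 0.00279), and Snhg8 at 0.98 (adjusted p = 9.16e-05). Snhg12 had an interaction of 0.82 (adjusted p = 0.0235). On ND 2 were higher, in WT 2 were lower with diet, and in Glis3-Pax8Cre 3 were higher. Of the host genes, 2 were higher without Glis3-Pax8Cre(ND) replicate 4 on ND and 4 for diet in Glis3-Pax8Cre, with medians of −0.11 and 0.37 where with it they were 0.03 and 0.33. The interaction was called positive for 2 of 13 and, without that library, 5 (4.43% and 4.28% of all genes).

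**Figure D5:**
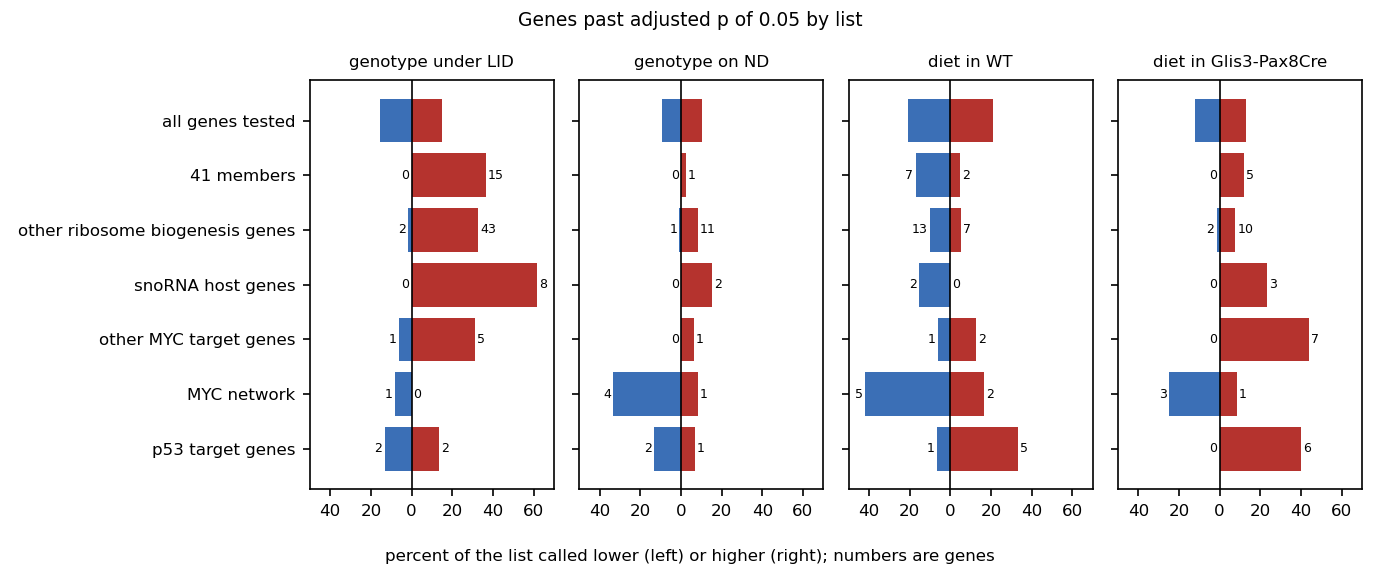
Percent of each gene list called higher (right) or lower (left) in the comparisons of genotype and diet, with all genes tested as the reference. For genotype under LID, 8 of 13 snoRNA host genes, 15 of 41 members and 43 of 131 other ribosome biogenesis genes were called higher, and 14.9% of all genes.

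Markers of dividing cells had another order of groups than the members. Their summed levels were 65.2, 65.1, 38.8 and 55.9 CPM (WT) and 71.3, 93.3, 82.0 and 542 CPM (Glis3-Pax8Cre) on ND, and 473, 493, 532 and 534 CPM (WT) and 406, 575, 580.4 and 619 CPM (Glis3-Pax8Cre) on LID, with Mki67 or Top2a the most abundant of 5 and none at 0. They were low in WT(ND) and in Glis3-Pax8Cre(ND) apart from replicate 4, and high in both LID groups, which overlapped. For diet in WT 5 of 5 were called higher, with a median of 3.21, where the members' median was 0.02, and for diet in Glis3-Pax8Cre 3 of 5, with 1.40. For genotype under LID 0 of 5 were called by edgeR (0 at an unadjusted p under 0.05, 0 in DESeq2), with a median of 0.07 where the members' was 0.25, and on ND 5 of 5, with 1.79 (3 of 5 in DESeq2). With Glis3-Pax8Cre(ND) replicate 4 left out, which had the level of LID mice, it was 4 of 5 on ND, with 0.66, and 5 of 5 for diet in Glis3-Pax8Cre, with 2.71. The ND count was 1 to 5 with 1 mouse left out, lowest without WT(ND) replicate 4, and DESeq2 called 3 of 5 for diet in WT and 3 in Glis3-Pax8Cre. Of 15 p53 targets 2 were called higher and 2 lower for genotype under LID, 1 and 2 on ND, and 5 and 1 for diet in WT, with Gdf15 (3.68, adjusted p = 4.55e-07), a stress cytokine gene, and Gtse1 (3.21, adjusted p = 2.42e-05), a cell cycle gene. For diet in Glis3-Pax8Cre, 6 of the 15 were higher. The counts of p53 targets without Glis3-Pax8Cre(ND) replicate 4 were 1 higher and 2 lower on ND, 8 higher for diet in Glis3-Pax8Cre, 4 and 2 for genotype under LID, and 8 and 2 for diet in WT.

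Endothelial markers were highest in WT(LID). Their summed levels were 512, 488, 620.0 and 578 CPM (WT) and 661, 889, 724 and 634 CPM (Glis3-Pax8Cre) on ND, and 1316, 1327, 1488 and 1406 CPM (WT) and 591, 731, 754 and 595 CPM (Glis3-Pax8Cre) on LID, with Kdr or Pecam1 the most abundant of 5 and none at 0. WT(LID) lay above all other mice, and 4 of 5 were called lower for genotype under LID and 5 of 5 higher for diet in WT. The interaction was called negative for 5 of 5 endothelial markers, with a median of −1.52, against 7.41% of all genes. Each was called in 26 of 26 alternatives. On ND 2 of 5 were called higher for genotype (median 0.36) and for diet in Glis3-Pax8Cre 1 lower (−0.13), and without Glis3-Pax8Cre(ND) replicate 4 it was 3 (0.40) and 1 (−0.23). In WT(LID), where these markers were highest, 2 members were called higher than in WT(ND) and 7 lower, against 20.9% and 20.8% of all genes. Of the 41 members 23 were positive in that comparison. The part of endothelial cells in the members' values was not tested.

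Of the 10 follicular cell markers, 4 were called higher and 3 lower for genotype under LID, 2 and 3 on ND, 5 and 1 for diet in WT, and 4 higher for diet in Glis3-Pax8Cre. On ND it was 4 and 2 without Glis3-Pax8Cre(ND) replicate 4, and for diet in Glis3-Pax8Cre 5 higher and 1 lower. The summed levels of the 10 markers, mostly Tg, were 307969.5, 204338, 231508 and 295608 CPM (WT) and 126596, 186744, 175109.8 and 132353 CPM (Glis3-Pax8Cre) on ND, and 241818, 332775, 306995 and 221411 CPM (WT) and 132241, 99145, 166087 and 118287 CPM (Glis3-Pax8Cre) on LID. By group mean they were lowest in Glis3-Pax8Cre(LID), though its mice overlapped those of Glis3-Pax8Cre(ND). Glis3-Pax8Cre(LID) was also the group with the highest member sums apart from Glis3-Pax8Cre(ND) replicate 4. With Tg left out before scaling, 14 members were called higher for genotype under LID, against 13.9% of all genes, with a median of 0.24. With scaling by library size alone the median of all genes was 0.16 for genotype under LID and 0.14 on ND, 69.1% of calls under LID were higher against 49.1% under TMM, and the members lay 0.23 and 0.13 above the median of all genes.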

How the data were processed

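The authors deposited 1 table of RNA read counts per gene for 16 thyroid libraries made after mRNA isolation with a TruSeq RNA kit. Per the labels and the study's methods, reads were aligned to mm10 with STAR 2.5 and counted over RefSeq gene models, without strand, with featureCounts 1.5.0-p1; hg19 is also listed and its use is not stated. Whether libraries were run on NextSeq or NovaSeq is not given per library.

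Members were matched by gene name. Members and gene lists were chosen with earlier results of these data known. Counts were fitted in R 4.3.3 with edgeR 4.0.16 and limma 3.58.1 over all entries that passed filterByExpr, with TMM factors, 1 mean per group and robust quasi-likelihood tests, and Benjamini-Hochberg adjusted p under 0.05 was called. DESeq2 1.42.0 was the second tool. The fits were tested on simulated counts. CPM are TMM-scaled, standard errors come from the fit, and lengths are unions of GENCODE vM21 exons. For a list, counts of calls and the median stand beside those of all genes, with no test of the list.

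All 16 values are given for Myc, for the member of each role with the highest mean CPM per kb, and for the 3 called members with the largest change in each comparison of groups; other called members are named with their change. Of each other list, the 2 genes with the largest and the 2 with the smallest change among those called, with a mean of at least 5 CPM, could be named, and up to 5 genes for the interaction. Fbl, Nop58, Wdr75, Nop14 and Wdr12 were also named for calls without a library after their values were seen, as were Zfas1, Slc5a5 and Pax8 for their values by mouse.

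Alternatives were DESeq2, RLE scaling, library size alone, Tg left out, no filter or at least 10 counts in every mouse, a replicate block, a thymocyte score as covariate, the 8 mice compared, adjusted p under 0.01 with a fold over 2, and each mouse left out. Chosen after seeing the data were the 8 Glis3-Pax8Cre mice with a replicate block, leaving out the mouse of each group highest in thymocyte markers (4 mice), a skeletal muscle score as covariate, and the counts of the other lists with each mouse left out.

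Replicate numbers were checked for pairing by correlating, between groups, each mouse's deviations from its group mean: for diet in Glis3-Pax8Cre, 4 of 4 correlations were above 0.1 (0.212 to 0.648), so blocked values are printed beside it for the members, and the labels do not say where a pairing would come from. Counts of the other lists in that comparison come from the fit without a block, and whether they hold with one is not shown. Of 24 pairs of replicates none were duplicates: chi-square per degree of freedom was 33.0 to 364.5. Intervals from counting alone are small at this depth, and the spread between mice sets the precision.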

Additional observations from a re-analysis of the deposited data

Results flagged for a closer look

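In 14 of 100 groups of 4 mice looked at, the gap from 1 mouse to the nearest other took up most of the group's range (Dixon's test), which chance gives in about 1 in 20 groups. Some items, such as Pax8, were named after their values by mouse were seen. The same mice also recur across items, so the count is not a test against that rate. Polr1b reached 17.6 CPM in Glis3-Pax8Cre(ND) replicate 4, where the other 3 mice of the group had 15.6 to 15.8 CPM. Polr1c reached 50.6 CPM in WT(ND) replicate 3, where the other 3 mice of the group had 35.7 to 37.8 CPM. Nop10 was at 38.2 CPM in WT(LID) replicate 1, where the other 3 mice of the group had 31.4 to 32.2 CPM. Nop10 was at 49.2 CPM in Glis3-Pax8Cre(LID) replicate 2, where the other 3 mice of the group had 39.4 to 40.9 CPM. Nop16 stood at 26.35 CPM in WT(ND) replicate 3, where the other 3 mice of the group had 21.2 to 22 CPM. Myc was low at 18.3 CPM in WT(ND) replicate 1, where the other 3 mice of the group had 20.29 to 20.3 CPM.

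Summed thymocyte markers were at 2665 CPM in Glis3-Pax8Cre(ND) replicate 4, where the other 3 mice of the group had 11.7 to 13.9 CPM. Summed thymocyte markers reached 222 CPM in WT(LID) replicate 3, where the other 3 mice of the group had 4.56 to 4.80 CPM. Summed thymocyte markers came to 333 CPM in Glis3-Pax8Cre(LID) replicate 4, where the other 3 mice of the group had 8.04 to 8.28 CPM. Summed dividing cell markers were at 542 CPM in Glis3-Pax8Cre(ND) replicate 4, where the other 3 mice of the group had 71.3 to 93.3 CPM. Glis3 was low at 45.2 CPM in WT(ND) replicate 4, where the other 3 mice of the group had 79.2 to 85.8 CPM. Pax8 was at 996 CPM in WT(ND) replicate 3, where the other 3 mice of the group had 374 to 397 CPM. Pax8 was low at 643 CPM in Glis3-Pax8Cre(ND) replicate 4, where the other 3 mice of the group had 944 to 989 CPM. Pax8 stood at 280.2 CPM in WT(LID) replicate 4, where the other 3 mice of the group had 329.7 to 339.5 CPM.

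By the interaction test the effect of diet differed between genotypes for Mybbp1a by 0.41 on the log2 scale, called in each of 26 alternatives other than the stricter threshold. For Polr1b it differed by 0.33, and the call was lost in 17 of the 26 (adjusted p up to 0.0959). Outside the 41 members, with the number of the 26 that called it in brackets, it differed for Zfas1 by 1.11 (26), Rcl1 by 0.59 (26), Snhg12 by 0.82 (22), Nsa2 by 0.33 (9) and Naf1 by 0.38 (9).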

How the results depend on the processing

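The 41 members were refitted under 13 single settings and with each of the 16 mice left out. For the called members other than Myc, 840 combinations of a call and an alternative were looked at, without the stricter threshold, which no member passed. The call was kept in 696, lost in 144 and reversed in 0, and the cause of each change was not tested. With 1 mouse left out, members called higher and lower were 8 to 20 and 0 to 1 for genotype under LID, 0 to 5 and 0 to 0 on ND, 1 to 4 and 4 to 8 for diet in WT, 1 to 17 and 0 to 1 for diet in Glis3-Pax8Cre, and 1 to 4 and 0 to 0 for the interaction. Of all genes 10.6% to 17.1%, 6.69% to 11.9%, 18.2% to 24%, 10.4% to 14.6% and 2.56% to 4.51% were called higher in that order, and 17% to 23.2% lower for diet in WT. Medians were 0.23 to 0.27, 0.08 to 0.21, −0.04 to 0.07, 0.06 to 0.17 and 0.06 to 0.20 in that order, and Myc 0.31 to 0.53, 0.21 to 0.38, −0.63 to −0.49, −0.53 to −0.28 and 0.02 to 0.27. With library size alone, members called higher were 26 for genotype under LID, 3 on ND, 0 for diet in WT, 0 for diet in Glis3-Pax8Cre and 1 for the interaction, with 2 lower for diet in Glis3-Pax8Cre. Of all genes 24.8%, 16.4%, 14.6%, 7.80% and 3.74% were then called higher and 20.4% lower for diet in Glis3-Pax8Cre. Medians were 0.39, 0.27, −0.13 and −0.029 for genotype under LID, on ND, diet in WT and in Glis3-Pax8Cre, and Myc was 0.55 for genotype under LID and −0.54 for diet in Glis3-Pax8Cre, both called. At adjusted p under 0.01 with a fold over 2, each edgeR count of calls was 0, where unadjusted p under 0.05 gave 24, 7, 3, 8 and 5 members higher and DESeq2 17, 3, 3, 5 and 2. On ND 3 members were called higher in DESeq2 (13.4% of all genes) and 0 without the mice highest in thymocyte markers (6.88%). With no filter, a thymocyte score, a muscle score or the 8 mice compared the ND count was also 0. Under LID the 8 mice compared gave 1 lower, Wdr12. For diet in WT a thymocyte score gave 4 higher and the 8 mice 4 (22.8% and 25.4% of all genes). For diet in Glis3-Pax8Cre a thymocyte score gave 8 higher, the 8 mice 1, and leaving out the mice highest in thymocyte markers 8 (14.8%, 8.29% and 12.4%), with 1 lower in DESeq2 and 1 with at least 10 counts in every mouse. The interaction gave 1 with no filter and 1 with a muscle score. Counts printed here or above with no share of all genes have no reference and are not read as results. Myc for genotype under LID was 0.40 in DESeq2 and 0.39 with a thymocyte score, and for diet in Glis3-Pax8Cre −0.41 in DESeq2 and −0.43 with at least 10 counts, each called.

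With a replicate block, counts of members called higher were 15 for genotype under LID, 0 on ND, 2 for diet in WT, 3 for diet in Glis3-Pax8Cre and 1 for the interaction, with 1 lower for diet in Glis3-Pax8Cre, where 14%, 9.49%, 20.9%, 12.7% and 3.99% of all genes were higher and 11.6% lower. Myc was 0.38 for genotype under LID and −0.41 for diet in Glis3-Pax8Cre, both called. That block ended the calls of Nop16 for genotype under LID (adjusted p = 0.0701), Npm1 on ND (0.0532), Bop1 and Mybbp1a for diet in Glis3-Pax8Cre (0.0504 and 0.0754) and Polr1b for the interaction (0.0713), and it changed no other call of a member called without it. The 8 Glis3-Pax8Cre mice with a replicate block gave 0 higher and 1 lower, Myc at −0.42, against 9.69% and 8.45% of all genes. Correlations of paired deviations were −0.521 to 0.097 for genotype under LID, −0.367 to −0.027 on ND and −0.168 to 0.14 for diet in WT.

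With 4 mice per group, differences near the spread between mice could not be detected. Depth did not limit the members, which were far above 3 counts in each library; it limits rare transcripts in the shallowest library. Counts over whole genes cannot show isoforms, the deleted exon of Glis3, protein or ribosome number, and counting without strand leaves 16 members uncertain.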

Other observations

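Other marker lists were summed to describe the tissue in which the ribosome biogenesis genes were measured, and their part in the results was not tested. Beside their counts, 14.9% of all genes were called higher and 15.4% lower for genotype under LID, 10.3% and 9.25% on ND, 20.9% and 20.8% for diet in WT, 13.1% and 12.3% in Glis3-Pax8Cre, and 4.43% and 7.41% for the interaction. Macrophage markers summed to 147 to 215 CPM in WT(ND), 241 to 286 CPM in Glis3-Pax8Cre(ND), 160.4 to 174 CPM in WT(LID) and 162 to 224 CPM in Glis3-Pax8Cre(LID). Of 5 tested macrophage markers, edgeR called 1 higher and 0 lower for genotype under LID, 5 higher and 0 lower for genotype on ND, 1 higher and 0 lower for diet in WT and 0 higher and 4 lower for diet in Glis3-Pax8Cre, with the same counts for the comparisons of Glis3-Pax8Cre(ND) without replicate 4. Fibroblast markers summed to 442 to 639 CPM in WT(ND), 205 to 439.6 CPM in Glis3-Pax8Cre(ND), 655 to 763 CPM in WT(LID) and 265 to 457 CPM in Glis3-Pax8Cre(LID). Of 5 tested fibroblast markers, edgeR called 0 higher and 1 lower for genotype under LID, 0 higher and 2 lower for genotype on ND, 1 higher and 2 lower for diet in WT and 1 higher and 1 lower for diet in Glis3-Pax8Cre, and 0 higher and 0 lower for genotype on ND without Glis3-Pax8Cre(ND) replicate 4. Adipocyte markers summed to 556 to 1103 CPM in WT(ND), 358 to 665 CPM in Glis3-Pax8Cre(ND), 334 to 571 CPM in WT(LID) and 369 to 810.2 CPM in Glis3-Pax8Cre(LID). Of 5 tested adipocyte markers, edgeR called 1 higher and 0 lower for genotype under LID, 0 higher and 2 lower for genotype on ND, 0 higher and 4 lower for diet in WT and 1 higher and 0 lower for diet in Glis3-Pax8Cre, and 0 higher and 1 lower for genotype on ND and 0 higher and 0 lower for diet in Glis3-Pax8Cre without Glis3-Pax8Cre(ND) replicate 4.

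Parathyroid markers summed to 6886 to 12570.4 CPM in WT(ND), 5622 to 8780.2 CPM in Glis3-Pax8Cre(ND), 1674 to 3734 CPM in WT(LID) and 366 to 3501 CPM in Glis3-Pax8Cre(LID). Of 4 tested parathyroid markers, edgeR called 0 higher and 1 lower for genotype under LID, 0 higher and 4 lower for diet in WT and 0 higher and 4 lower for diet in Glis3-Pax8Cre, and 0 higher and 2 lower for diet in Glis3-Pax8Cre without Glis3-Pax8Cre(ND) replicate 4. C cell markers summed to 7320.5 to 9615 CPM in WT(ND), 3367 to 5824 CPM in Glis3-Pax8Cre(ND), 2346 to 3688 CPM in WT(LID) and 1261 to 3213 CPM in Glis3-Pax8Cre(LID). Of 4 tested C cell markers, edgeR called 0 higher and 2 lower for genotype on ND, 0 higher and 3 lower for diet in WT and 0 higher and 2 lower for diet in Glis3-Pax8Cre, and 0 higher and 3 lower for genotype on ND without Glis3-Pax8Cre(ND) replicate 4. B cell markers summed to 7.62 to 10.6 CPM in WT(ND), 6.90 to 13.6 CPM in Glis3-Pax8Cre(ND), 9.28 to 10.1 CPM in WT(LID) and 6.00 to 10.5 CPM in Glis3-Pax8Cre(LID). Of 4 tested B cell markers, edgeR called 1 higher and 0 lower for genotype on ND and 0 higher and 1 lower for diet in Glis3-Pax8Cre, and 0 higher and 0 lower for genotype on ND and 0 higher and 0 lower for diet in Glis3-Pax8Cre without Glis3-Pax8Cre(ND) replicate 4. Skeletal muscle markers varied from 0.667 to 1298 CPM between mice within groups, and erythroid markers from 6.38 to 67.6 CPM with 3 of 5 at 0. Neither list had a gene called by edgeR in the comparisons of groups (0 and 0 at an unadjusted p under 0.05, and 0 and 0 in DESeq2, for genotype on ND), and none of the 10 thymocyte markers was called (1 at an unadjusted p under 0.05 and 0 in DESeq2 for genotype on ND). The parathyroid and C cell lists share Chga.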
